A study of Mus musculus with 5 samples.

Results

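The facilitative glucose transporters of the Slc2a family were followed in dorsal pancreatic buds that lacked the transcription factor Ptf1a, with Slc2a3 (GLUT3) described first. Members were all probe sets annotated to exactly 1 gene symbol among 10 named Slc2a genes, which gave 19 probe sets for 10 genes out of 45037 tested probe sets and 18193 named genes. Slc2a3 was selected on its null against heterozygote difference, because probe sets 1437052_s_at and 1455898_x_at had passed a comparison of these same arrays, so its genotype difference is given as a description and not as a test. The other 9 genes were included by family name.

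Buds came from C57BL/6J mouse embryos at embryonic day E10.5, from timed matings of Ptf1a heterozygous adults. One group was Ptf1a heterozygote (n = 2 arrays) and the other Ptf1a null mutant (n = 3 arrays). Both groups therefore carried at least 1 mutant allele, and no wild-type bud was measured. Each array held RNA from a pool of 3 buds whose mesenchyme had been removed mechanically, amplified in 2 linear rounds from the poly(A) tail. Litters are not recorded in the labels, and p-values reflect no more than the spread among these pools. In such pools, fewer cells of a type and less RNA per cell cannot be told apart.

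Slc2a proteins carry hexoses across membranes down their concentration gradient, without using energy. Members differ in affinity, substrate and location: GLUT1 supplies most dividing cells, GLUT2 is the high-capacity carrier of hepatocytes and mouse beta cells, and GLUT3 is the high-affinity carrier best known in neurons. Once inside, glucose is trapped by hexokinases and enters glycolysis.

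Median raw intensity was 13.7 to 17.5 across arrays, and values below are log2 signals after quantile normalisation. The background level of an array was the 95th percentile of its 27 Bacillus subtilis controls and lay at 3.03 to 3.29, and 60.9% to 65.2% of probe sets exceeded it. Signals of different probe sets cannot be ranked against each other, since each has its own affinity. Ptf1a itself (1419424_at) averaged 7.22 ± 0.16 (SD, n = 2) in heterozygous pools and 5.43 ± 0.57 (SD, n = 3) in null pools, with the extent of the deletion not stated in the labels. Of 13 measured pancreatic epithelium markers, 12 exceeded background on all 5 arrays.

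Slc2a3 signal was higher in every null pool than in either heterozygote pool at all 4 of its probe sets. At 1437052_s_at both heterozygotes were low, at log2 signals of 8.67 and 9.07, and nulls had 10.70, 10.61 and 10.33. The groups were separated by a gap of 1.26, and each group's own arrays lay close together. The means were 8.87 ± 0.29 (SD, n = 2) and 10.55 ± 0.20 (SD, n = 3), a 3.20-fold higher signal in nulls (log2 change 1.68, SE 0.37).

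At 1455898_x_at the heterozygotes had 7.65 and 8.19 and the nulls 10.08, 10.19 and 9.58. This again placed all nulls above both heterozygotes, with a 4.09-fold difference between means (log2 change 2.03, SE 0.41). Both probe sets were designed on the same sequence record, so they are not independent readings of the transcript. Their suffixes mark probe sets that can match more than 1 transcript.

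The other 2 probe sets were each designed on a separate record and were dimmer. At 1421924_at heterozygotes had 5.37 and 2.46, nulls 6.71, 6.02 and 6.70. At 1427770_a_at heterozygotes had 4.67 and 2.83, nulls 5.52, 5.52 and 5.66. Heterozygote replicate 2 was below background at both, while the other 4 arrays were above it.

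The log2 changes at these dimmer probe sets were 2.57 (SE 0.94) and 1.82 (SE 0.63), and their size depended on heterozygote replicate 2. Without that array they were 1.11 and 0.90, and without heterozygote replicate 1 they were 4.02 and 2.74. The brighter pair moved less, to 1.88 and 2.30 without heterozygote replicate 2 and to 1.48 and 1.77 without heterozygote replicate 1. The 4 probe sets thus gave the same direction but not the same size.

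**Figure D1:**
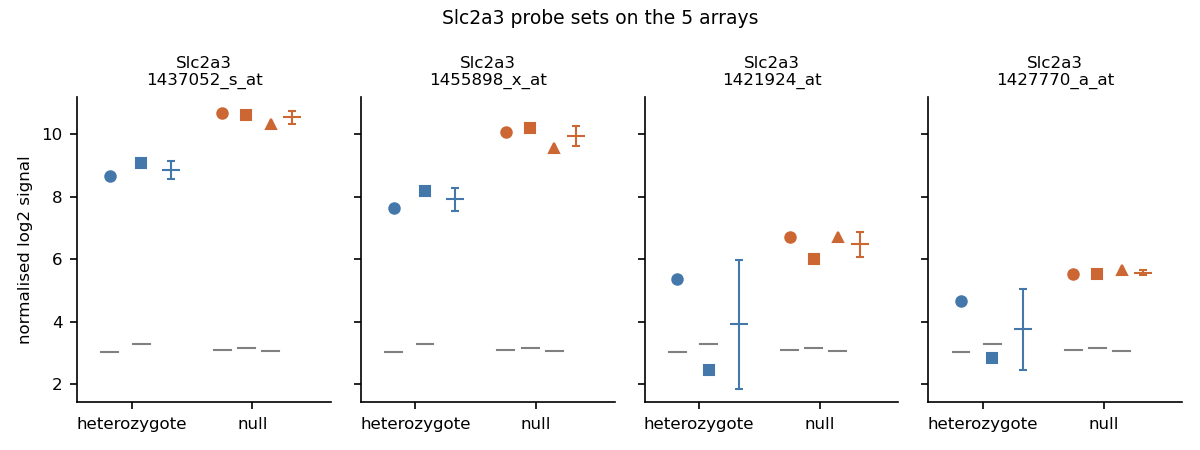
Normalised log2 signal (y axis) of the 4 Slc2a3 probe sets in heterozygote and null pools; points are arrays (circle, square and triangle for replicates 1, 2 and 3), bars are means ± SD, and grey ticks are each array's background level. All nulls lie above both heterozygotes in each panel, and heterozygote replicate 2 falls below background at 1421924_at and 1427770_a_at.

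Genotypes were compared across all 45037 probe sets with limma, first with a single prior variance for all probe sets (the untrended fit) and then with a prior variance that follows signal level and resists outlying variances (the trended fit). The untrended fit called 0 probe sets (0.0%) at a Benjamini-Hochberg adjusted p under 0.05, with 2484 at an unadjusted p under 0.05, and so 0 of the 19 transporter probe sets. The trended fit called 8 (0.0178%), of which 5 were higher in nulls (0.0111%). The 2 transporter probe sets among them, the bright pair of Slc2a3, are the ones that led to its choice, and nothing further is read from that count. Trended limma gave each an adjusted p of 0.00894, and untrended limma gave 0.512 (1437052_s_at) and 0.458 (1455898_x_at).

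The trended calls of Slc2a3 depended on single arrays and on scaling. No transporter probe set was called without null replicate 1, 2 or 3, when the trended limma adjusted p of the bright pair ranged from 0.0811 to 0.161. Leaving out either heterozygote leaves 1 array in that group, so calls of those fits are not given. With an offset of 16 added, both probe sets of the bright pair stayed called (trended limma adjusted p = 0.0129 for each). With median centring 1455898_x_at was called (limma adjusted p = 0.0417) and 1437052_s_at was not (0.0796), and without normalisation neither was (0.127 and 0.392).

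Groups that do not overlap were common on these arrays, at 20.0% of probe sets: all nulls lay above both heterozygotes at 9.9% of probe sets, and below both at 10.1%.

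Across the family, 15 of 19 probe sets were higher in nulls, but the share was 11 of 15 in the other 9 chosen genes, where the median log2 change was 0.44 against -0.0099 over all probe sets. That median was 0.036 without heterozygote replicate 2, with 8 of 15 higher, and 0.099 with every value raised to at least background. Heterozygote replicate 2 was the lowest array at 8 of these 15 probe sets, against 21.7% of all probe sets. Of the 5 of these 15 that exceeded background on all arrays, 3 were higher and 2 lower, with a median of 0.14. Among the 15, all nulls lay above both heterozygotes at 0 probe sets and below both at 1, that of Slc2a5. Slc2a13, a further Slc2a gene that was not among the 10 chosen, is described with other sugar transport genes. In both fits the adjusted p-values called 0 of the 15. Of the 15, 1 (6.7%) had an unadjusted limma p under 0.05, against 5.5% (untrended) and 4.9% (trended) of all probe sets.

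**Figure D2:**
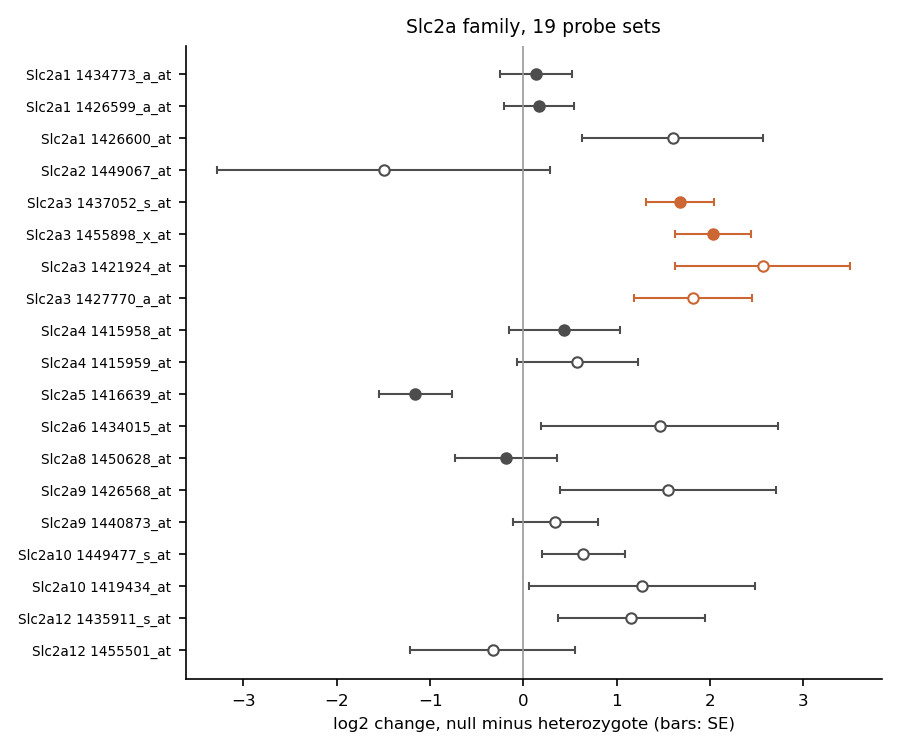
Log2 change (x axis, null minus heterozygote) of the 19 probe sets of 10 Slc2a genes with the SE of the untrended fit; filled points exceeded background on all 5 arrays and Slc2a3 is in orange. The Slc2a3 changes run from 1.68 to 2.57, whereas the filled points of other genes run from -1.16 to 0.44.

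Slc2a1, the basal glucose carrier of most dividing cells and of red cells, showed little difference at its 2 brighter probe sets. At 1434773_a_at the signal was 7.61 and 7.80 in heterozygotes and 7.75, 7.58 and 8.19 in nulls. The groups overlapped, with a log2 change of 0.14 (SE 0.38) and a 95% interval of -0.85 to 1.12. At 1426599_a_at, heterozygotes had 6.01 and 6.03 and nulls 5.85, 6.43 and 6.29, a log2 change of 0.17 (SE 0.37) with overlap. The direction at 1434773_a_at turned to -0.024 without normalisation and to -0.041 without null replicate 3.

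The third Slc2a1 probe set, 1426600_at, was designed on the same record as 1426599_a_at but behaved differently. It had 4.95 and 1.89 in heterozygotes and 4.61, 5.21 and 5.23 in nulls, so that heterozygote replicate 2 alone stood apart and was below background. Its log2 change of 1.60 (SE 0.97) was 0.066 without that array. The low reading on heterozygote replicate 2 was thus shared with the 2 dim Slc2a3 probe sets, although at those the other heterozygote was also below every null. The part of that array in the dim Slc2a3 changes was not tested beyond leaving it out.

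Slc2a2, the high-capacity carrier that mouse beta cells use to sense glucose, was close to background. Its probe set 1449067_at had 3.97 and 2.96 in heterozygotes and 3.92, -1.45 and 3.43 in nulls. Null replicate 2 was far below the rest, and the log2 change of -1.50 (SE 1.78) turned to 0.21 without it. No genotype difference was detectable at this signal.

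Slc2a5, the fructose carrier, was the member with nulls below both heterozygotes. At 1416639_at the signal was 5.27 and 5.43 in heterozygotes and 4.57, 3.85 and 4.14 in nulls, above background on all 5 arrays. The log2 change was -1.16 (SE 0.39), a 2.24-fold lower signal, and it stayed between -1.35 and -0.72 in the 10 alternatives run. It missed the threshold, at a limma adjusted p of 0.832 without and 0.976 with the trended prior.

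Slc2a4, the insulin-responsive carrier of muscle and fat, had overlapping groups at both probe sets. At 1415958_at the signal was 5.31 and 4.51 in heterozygotes and 4.55, 5.44 and 6.05 in nulls, a log2 change of 0.44 (SE 0.60). Its second probe set, 1415959_at, had a log2 change of 0.58 (SE 0.65), which was -0.30 without heterozygote replicate 2.

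Slc2a8, a carrier held mainly in intracellular vesicles, had 5.99 and 5.53 in heterozygotes and 5.87, 4.76 and 6.09 in nulls at 1450628_at. The groups overlapped, with a log2 change of -0.18 (SE 0.55) that became 0.22 without null replicate 2 and was also positive without heterozygote replicate 1.

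The remaining members were dim. Slc2a10, whose loss causes arterial tortuosity in humans, exceeded background on 4 arrays at 1449477_s_at, with a log2 change of 0.64 (SE 0.44) and overlapping groups, and on 1 array at 1419434_at. Slc2a12, an insulin-responsive carrier in human muscle, exceeded it on 4 arrays at 1435911_s_at (log2 change 1.16, SE 0.79, and -0.0074 without heterozygote replicate 2) and on 1 array at 1455501_at. Slc2a6, an intracellular member, exceeded it only on null replicate 2. Slc2a9, the urate carrier, exceeded it on no array at either probe set, so its plotted values give neither a level nor a fold, although they enter the counts of 15 and 19 probe sets.

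**Figure D3:**
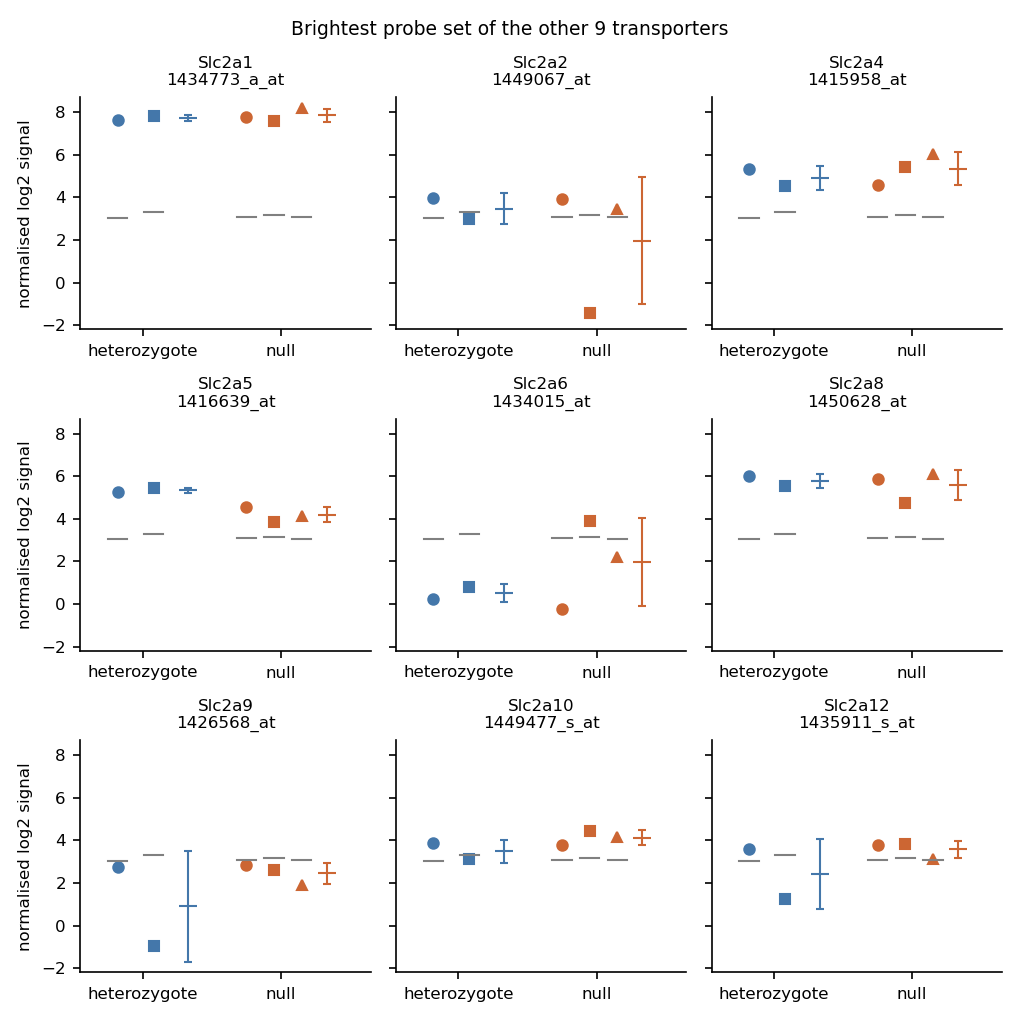
Normalised log2 signal (y axis) at the brightest probe set of each of the other 9 transporters; symbols, bars (mean ± SD) and grey background ticks are as in the Slc2a3 plot. Slc2a5 is the panel where nulls lie below both heterozygotes, and Slc2a9 lies below background on every array.

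RefSeq promoter windows (GRCm38.p6, 250 bases before to 50 after the start) were at hand for 8 of the 10 genes, the others being Slc2a3 and Slc2a4, and were searched on both strands. The hypoxia element cores ACGTG and GCGTG occurred in 2 and 3 of the 8, against 19.6% and 32.4% of 32851 windows in the table, and Slc2a1 held both. The E-box CANNTG, the motif class bound by Ptf1a, occurred in 5 of the 8 against 72.3% of windows. The TC box TTTCCC, the class bound by its partner Rbpj, occurred in 3 against 25.2%. These matches describe letters in the windows and are not evidence of binding.

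Genes that handle glucose beyond the 10 chosen transporters were described by lists, each gene by its brightest probe set. Both fits called 0 list members over all probe sets, against 0.0% (untrended) and 0.033% (trended) of 18193 named genes. Over all named genes the median log2 change was -0.012, and all nulls lay above both heterozygotes at 9.82% and below both at 10.1%. The median over all probe sets shifted to -0.073 with median centring and to -0.12 without normalisation, so small list medians are read against these.

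Hexokinases trap glucose as glucose-6-phosphate. Hk1, the widely expressed form, had 7.04 and 6.43 in heterozygotes and 7.31, 7.11 and 7.35 in nulls at 1437974_a_at, a log2 change of 0.52 (SE 0.38). Its other probe set, 1420901_a_at, also had all nulls above both heterozygotes, with a log2 change of 0.81 (SE 0.44). Hk2, the inducible form, differed by 0.23 (SE 0.34), with heterozygotes at 6.85 and 6.65 and nulls from 6.87 to 7.08. Hkdc1, a hexokinase-like gene, differed by -0.15 (SE 0.35) and Hk3 by -0.40 (SE 0.54), both with overlap. None passed adjustment at its brightest probe set (untrended limma adjusted p of 0.991 or more).

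In the whole glucose phosphorylation and glycolysis list, 15 of 23 measured genes were higher and 8 lower, with a median log2 change of 0.13. It became -0.11 without normalisation, where the median over all probe sets was -0.12. All nulls lay above both heterozygotes at 6 genes and below both at 1, the phosphofructokinase-2 gene Pfkfb2 (log2 change -0.76, SE 0.58), named after its values were seen. Among members above background throughout, the largest changes were those of the enolases Eno2 (0.91, SE 0.48) and Eno3 (0.64, SE 0.57) and of the aldolase Aldoc (-0.59, SE 0.60). Eno2 is the enolase of neurons and neuroendocrine cells.

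Pyruvate and lactate handling genes had 9 of 15 higher and a median of 0.15, which turned to -0.090 without heterozygote replicate 1. All nulls lay above both heterozygotes at 4 of them, Slc16a7, Emb, Pdk4 and Pdha1, and below both at 1, Dlat. All but Emb and Pdha1 were named after their values were seen. Slc16a7 exceeded background on 1 array and Pdk4 on 2, all of them nulls, so the order of the other arrays at these genes lies below background. Emb, a partner protein of lactate carriers, had the largest change among members above background throughout, at 0.55 (SE 0.36), and the next largest was lower in nulls. Glycogen and pentose branch genes had 8 of 15 higher and a median of 0.050. It was -0.056 with median centring and -0.10 without normalisation, where all probe sets had medians of -0.073 and -0.12. Gys1, the glycogen synthase of most tissues, differed by 0.91 (SE 0.58) with overlap. The others of the 3 largest changes among members of that list above background throughout were lower in nulls.

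Other sugar transport genes had 9 of 17 higher and a median of 0.071. It was -0.036 with median centring and -0.081 without normalisation, both above the median over all probe sets. Slc5a9, a sodium-coupled sugar carrier, differed by 0.97 (SE 0.41), with heterozygotes at 3.26 and 3.61 and nulls at 4.82, 4.29 and 4.10. Slc37a4, which moves glucose-6-phosphate into the endoplasmic reticulum, differed by 0.80 (SE 0.35), from 5.83 and 5.97 to 6.46, 6.89 and 6.74. Slc2a13, the proton-coupled inositol carrier and the family's most distant relative, was named after its values were seen: it had 3.23 and 3.15 in heterozygotes and 5.11, 4.72 and 3.51 in nulls (log2 change 1.26, SE 0.59). It exceeded background on every null but on only 1 heterozygote. All nulls lay above both heterozygotes at 4 genes of the list, these 3 among them, and below both at 2, named after their values were seen. The latter were the sugar carriers Slc45a1 (log2 change -0.49, SE 0.42) and Slc45a4 (-0.52, SE 0.41). None of the 5 passed adjustment (untrended limma adjusted p of 0.935 or more).

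Genes for transporter trafficking and its regulation were balanced, with 15 of 29 higher and a median of 0.0029, whose sign differed between alternatives. Pik3r1, a regulatory subunit of the insulin-activated lipid kinase, differed by 0.74 (SE 0.35), from 6.93 and 7.14 to 7.60, 7.98 and 7.75. Dmtn, a membrane skeleton protein of red cells, differed by -0.78 (SE 0.81) with overlap. Irs1, an adaptor of the insulin receptor, differed by 0.70 (SE 0.34) with all nulls above both heterozygotes, as at 3 genes of the list in all. All nulls lay below both at 2, Add2 and Myc, named after their values were seen. Add2, a membrane skeleton protein, differed by -0.66 (SE 0.33), and the transcription factor Myc, above background on 3 arrays, by -2.96 (SE 1.36).

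Slc2a3 is also known as a gene induced by low oxygen through HIF. Of 27 measured hypoxia response genes 18 were higher (66.7%), against 49.1% of named genes, with a median of 0.25. The median remained positive in the 10 alternatives, from 0.054 with an offset of 16 to 0.44 without heterozygote replicate 2. All nulls lay above both heterozygotes at 4 genes, Ankrd37, P4ha1, Arnt and Kdm3a, and below both at 1, Car9, the last 3 named after their values were seen. Car9, a carbonic anhydrase induced by HIF, had 4.81 and 4.81 in heterozygotes and lay below background in every null, which makes it at least 3.25-fold lower there (untrended limma adjusted p = 0.729). Ankrd37, an ankyrin-repeat gene induced by HIF, had 4.33 and 4.24 in heterozygotes and 5.22, 5.86 and 5.69 in nulls (log2 change 1.31, SE 0.38, untrended limma adjusted p = 0.755). P4ha1, a collagen prolyl hydroxylase, differed by 1.26 (SE 0.50) and Bnip3, a mitophagy gene, by 0.87 (SE 0.54), the latter with overlap. A list of similar genes was already known to lie higher in these nulls, so this is not independent evidence. The part of low oxygen in the Slc2a3 values was not tested.

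**Figure D4:**
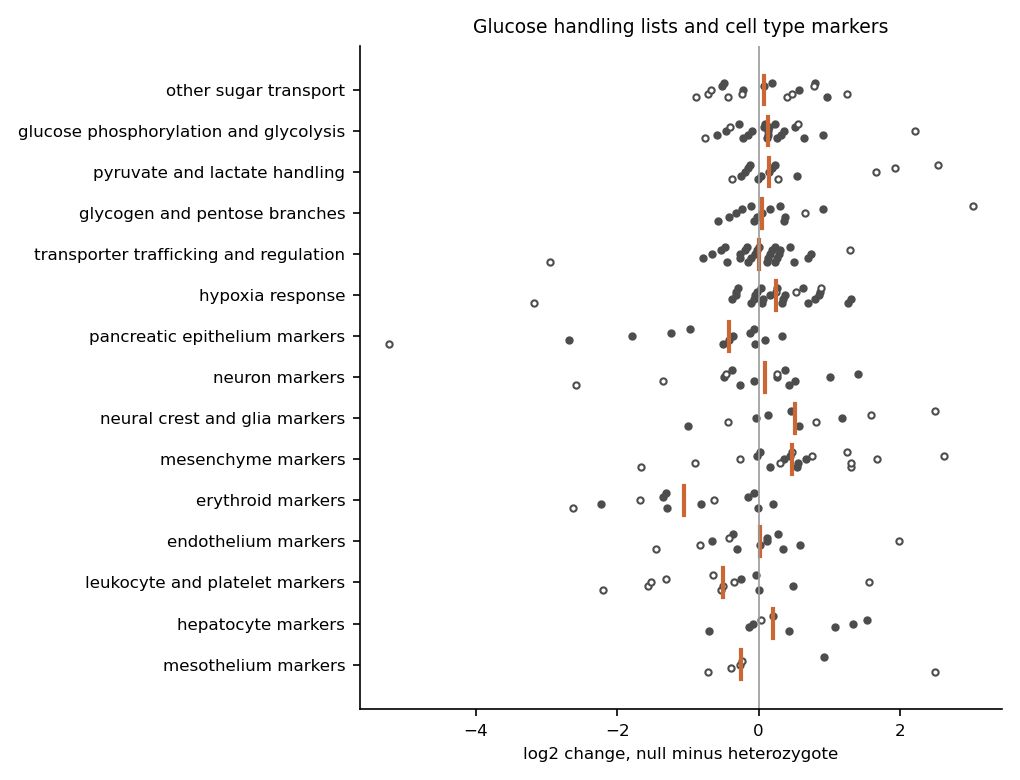
Log2 change (x axis, null minus heterozygote) of each measured gene in 6 glucose-related lists and 9 cell type marker lists; filled points exceeded background on all 5 arrays and orange bars are list medians. The glucose lists have medians between 0.0029 and 0.25, while marker medians run from -1.05 (erythroid) to 0.52 (neural crest and glia).

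Markers of other cells that use GLUT3 or could lie in the bud were set beside Slc2a3. Of 14 neuron markers 7 were higher and 7 lower, and the log2 of their summed signal was 10.58 to 11.06 in heterozygotes and 10.78 to 11.11 in nulls, with overlap. Dcx and Ina, a microtubule protein and a neurofilament of young neurons, had log2 changes of 1.00 (SE 0.42) and 1.41 (SE 0.49), with all nulls above both heterozygotes. Elavl3, an RNA-binding protein of neurons named after its values were seen, had all nulls below both, at 3.82 and 4.90 in heterozygotes and -1.03, 3.14 and 3.21 in nulls. Leukocyte and platelet markers, whose cells also use GLUT3, had 3 of 13 higher, with summed signals of 7.98 to 8.74 in heterozygotes and 7.71 to 8.39 in nulls.

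Summed signals of 4 of the 9 marker lists did not overlap between the groups. Single probe sets did not overlap at 20.0%, and no such share was computed for summed lists. Neural crest and glia markers had 7 of 10 higher, with sums of 8.24 to 8.51 in heterozygotes and 8.77 to 8.97 in nulls. Hepatocyte markers had 6 of 9 higher, with sums of 12.17 to 12.62 against 12.68 to 12.71 and a median of 0.20. Afp, the fetal plasma protein, differed by 1.54 (SE 0.56) with all nulls above both heterozygotes, and Prox1, a transcription factor named after its values were seen, by -0.70 (SE 0.36) with all nulls below both. Mesothelium markers had 2 of 6 higher, a median of -0.25 and sums of 5.89 to 6.46 against 6.75 to 7.21. Only 1 of the 6, Krt19 (log2 change 0.92, SE 0.35), exceeded background on all arrays, and Msln exceeded it on none. The sums were higher in nulls although 4 of the 6 members were lower, so they are not read as a difference in mesothelium. Erythroid markers, whose cells carry GLUT1, had 1 of 12 higher, with sums of 13.26 to 13.62 in heterozygotes and 13.02 to 13.19 in nulls and Hba-a1 above background on no array. All nulls lay below both heterozygotes at 6 of the 12 and above both at 0, against 10.1% and 9.82% of named genes.

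Sums of the other marker lists overlapped. Mesenchyme markers had 15 of 19 higher and sums of 11.12 to 11.43 against 11.38 to 11.64, with Twist1 and Thy1 above background on no array. All nulls lay above both heterozygotes at 5 of the 19 and below both at 1, against 9.82% and 10.1% of named genes. Pancreatic epithelium markers had 2 of 13 higher and a median of -0.43, and all nulls lay below both heterozygotes at 6 of the 13, Ptf1a included, against 10.1% of named genes. Their sums of 11.87 to 12.58 and 11.91 to 12.28 were carried largely by Gcg, the glucagon gene, at 10.57 and 11.85 in heterozygotes and 11.34 to 11.77 in nulls. Endothelium markers had 7 of 13 higher, with sums of 8.40 to 9.10 and 8.28 to 9.35. The part of these cell types in the Slc2a3 values was not tested.

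Named genes whose pattern over the 5 arrays was most like the mean of the bright Slc2a3 pair were found by Pearson correlation among 18142 probe sets above background on all arrays. Since 147 probe sets reached an r of 0.95 or more over only 5 arrays, the ranking is a description. The 5 highest were Pdpn, a mucin-type membrane glycoprotein (r = 0.999), Vnn1, a pantetheinase (0.998), Fam3c, a secreted cytokine-like protein (0.998), Arhgef25, a guanine nucleotide exchange factor (0.995), and Itih5, a hyaluronan-binding secreted protein (0.995). At the probe sets chosen by r, log2 changes were 1.10 for Pdpn, 1.81 for Vnn1, 1.02 for Fam3c, 0.54 for Arhgef25 and 2.09 for Itih5. All other probe sets of these genes had smaller changes in the same direction. They were 1.45 for Vnn1, 0.87 for Fam3c, 0.31 to 0.37 for Arhgef25, and 1.14 and 1.68 for Itih5. The groups overlapped at Arhgef25 1449688_at. Vnn1 at 1447845_s_at had 4.01 and 4.49 in heterozygotes and 6.30, 6.16 and 5.73 in nulls, a likeness that follows from how it was chosen.

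**Figure D5:**
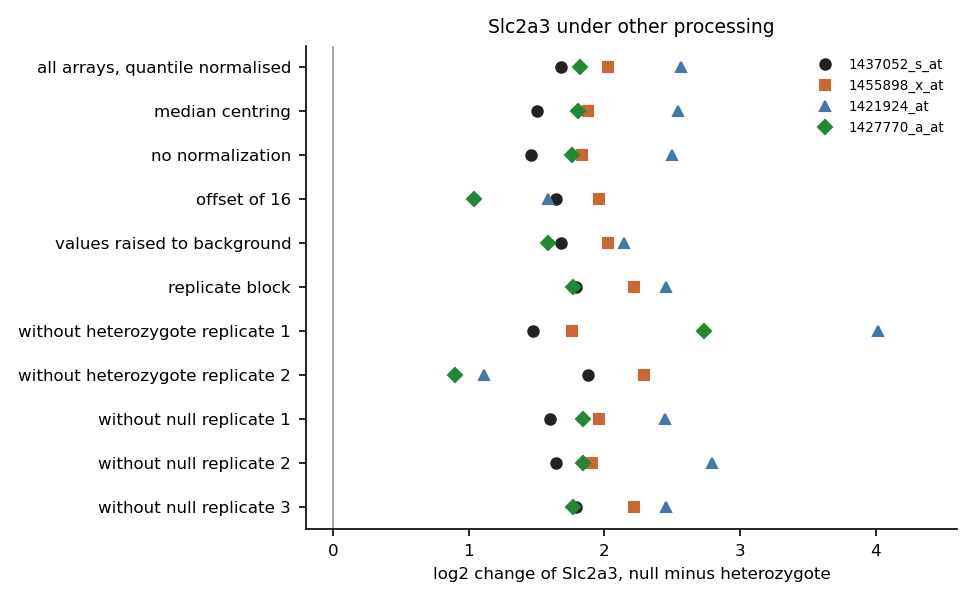
Log2 change of the 4 Slc2a3 probe sets (x axis, null minus heterozygote) with all arrays and under 10 other settings (y axis). The bright pair stays between 1.46 and 2.30, while 1421924_at spans 1.11 to 4.02 and 1427770_a_at spans 0.90 to 2.74 as heterozygote arrays are left out.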

How the data were processed

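The authors deposited 1 linear intensity per probe set and array from Affymetrix Mouse Genome arrays. Per the submitters' processing notes GCOS and RMA were used, with no version or role stated, and their background handling is not stated. Here log2 was taken with no offset, followed by quantile normalisation over the 5 arrays. After 64 control probe sets were left out of 45101, genotypes were compared with limma 3.58.1 in R 4.3.3 (lmFit, eBayes, two-sided, Benjamini-Hochberg over all 45037 probe sets, threshold 0.05), untrended as the main fit and trended with robust variances as the alternative. An exact permutation test cannot go below 0.1 here. The fits were tested on simulated data. Gene names came from the platform annotation: 34945 probe sets had 1 symbol, of which 34741 matched RefSeq gene IDs with 0 symbols changed, 932 had several and 9160 had none. Members, lists and tests were chosen with earlier results of these data known. From each list the text names the 3 members with the largest changes among those above background on all arrays, or fewer, and the hexokinases (1 gene of the lists is not reported here); the 5 most similar genes were taken by Pearson r. The number of arrays limits the precision. No genomic positions are given, because no build is named for these arrays in the sources used here.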

Additional observations from a re-analysis of the deposited data

How the results depend on the processing

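The untrended fit called 0 probe sets in every setting run, including the replicate block, with lowest adjusted p-values of 0.24 to 0.851. The trended fit called 8 probe sets, 2 of them in the family; with median centring 4 and 1, without normalisation 2 and 0, and with an offset of 16 added 10 and 2. With single nulls left out its counts ranged from 0 to 1, and were 0 in the family. With the replicate number as a block the trended fit called 79 probe sets and 3 of Slc2a3 (1437052_s_at, 1455898_x_at and 1421924_at), against 0 in the untrended fit with that block. Null replicate 3 has no partner in the block, so log2 changes of the block fits equal those without that array. The block also leaves fewer degrees of freedom for the variance, so its larger count of calls is not read as a stronger result. No pairing by replicate number was seen. Deviations from the group means had a Pearson r of -0.017 for replicate 1 and 0.0080 for replicate 2. With 2 heterozygotes their deviations mirror each other, so these values are not separate checks. Of 19 family probe sets, 11 kept their sign in all 10 alternatives, among them the 4 of Slc2a3 and that of Slc2a5. The other 8 changed sign in at least 1. Of these alternatives, the replicate block and the setting without null replicate 3 give the same log2 changes and are not separate. Of 15 list medians, 7 kept their sign and 8 did not, counted against 0 in every setting although the median over all probe sets moved. Dim signal limits Slc2a2, Slc2a6, Slc2a9, Slc2a10 and Slc2a12. The causes of lost calls were not tested.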
